A study of Mus musculus with 24 samples.

Results

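Of 54141 exon events in the deposited splicing table, 713 were frame-shifting alternative exons whose inclusion was similar in wild-type stem cells and wild-type neurons. They were selected on measured values. An exon was taken when it was not a microexon, when its length was not divisible by 3, when its read coverage was scored sufficient in all 24 samples, when its mean PSI (percent spliced in, the share of transcripts that include the exon) was 10 to 90% in WT embryonic stem cells (ESCs), and when its mean PSI in WT neurons lay within 15 points of that. The steps left 53662 events that were not microexons, 31618 with a length that shifts the frame, 15625 with coverage, 915 in the PSI range and 713 within the window, so that 202 exons were lost to the window alone. The WT ESC and WT neuron levels are therefore given as a description, with no test. The comparisons of genotypes in ESCs and in neurons share their WT samples with the selection, whereas neural progenitor cells (NPCs) and cells sorted for PSA-NCAM, the polysialylated form of a neural adhesion protein (PSA-NCAM+ cells), were used only to require coverage.

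The samples were mouse ESCs and their differentiated progeny in 8 groups of 3 replicates, 24 in all. WT cells were wt/wt and slow/slow cells were Polr2a[R749H/R749H], that is, both alleles of Polr2a, which encodes the largest and catalytic subunit of RNAPII (RNA polymerase II), carry the R749H substitution, described in the study as slow in elongation. ESCs were grown in 2i medium with LIF. NPCs were collected at day 7 of differentiation and PSA-NCAM+ cells were purified with beads at day 10, from cultures seeded at 10000 WT or 30000 slow/slow cells per cm2, so that genotype and seeding density cannot be told apart at these stages. Neurons were cultures replated at day 7 and grown for 14 more days. The slow/slow ESCs had been made by successive rounds of gene targeting, and the labels do not say whether replicates were separate cultures or clones. The study's methods speak of 3 independent differentiation experiments without tying them to the replicate numbers and without naming the PSA-NCAM+ cells, so the p-values measure the spread between these samples, which may partly be technical.

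An exon whose length is not a multiple of 3 changes the reading frame of everything downstream when it is included or skipped. Such a switch often brings a stop codon into frame ahead of the last exon junction, and transcripts of that kind are typical targets of nonsense-mediated decay (NMD), which is triggered when a ribosome stops upstream of an exon junction complex. Exons that bring in a stop when they are included are called poison exons, and many genes of RNA-binding proteins carry one through which their own level is set. Some frame-shifting exons occur as mutually exclusive pairs of equal length, in which either exon alone keeps the frame.

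The sequences below show how a stop codon arises when exons of this kind are included or skipped. They were read from the GRCm38 reference for the exons that matched 1 annotated exon position in GENCODE M21. The match was by chromosome, strand, exon length and both flanking intron lengths, and the gene name was not part of it. The deposited splicing coordinates are in mm9 and were not converted. Capitals mark the stop codon in the frame of the annotated transcript. The exons of Rbm39 (chr2:156178880-156178952, minus strand), Ccnl1 (chr3:65955204-65955276, minus strand) and Rabggtb (chr3:153910064-153910161, minus strand) hold the stop themselves. It lay 1424, 786 and 515 nt before the last exon junction.
Rbm39: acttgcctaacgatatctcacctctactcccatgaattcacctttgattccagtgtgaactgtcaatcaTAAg
Ccnl1: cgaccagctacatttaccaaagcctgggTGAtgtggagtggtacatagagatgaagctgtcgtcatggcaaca
Rabggtb: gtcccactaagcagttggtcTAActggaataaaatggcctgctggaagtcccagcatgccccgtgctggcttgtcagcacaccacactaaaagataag

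The 71 nt exon of Luc7l (chr17:26253974-26254044, plus strand) and the 28 nt exon of Nktr (chr9:121729997-121730024, plus strand) hold no stop in frame, and the stop follows in the next exon. They are printed from the first base of the alternative exon to that stop, in capitals, which lay 637 nt (Luc7l) and 3984 nt (Nktr) before the last junction.
Luc7l: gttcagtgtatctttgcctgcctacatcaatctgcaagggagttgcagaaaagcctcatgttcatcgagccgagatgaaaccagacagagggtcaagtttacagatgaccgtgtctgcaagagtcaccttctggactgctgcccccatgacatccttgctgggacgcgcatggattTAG
Nktr: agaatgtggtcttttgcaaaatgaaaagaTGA

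The 91 nt exon of Clk1 (chr1:58420121-58420211, minus strand) is a case of the opposite kind, in which skipping brings the stop. The exon is printed whole, and the skipping form is printed from 15 bases before the joined junction, with the stop in capitals 809 nt before the last junction.
Clk1 exon: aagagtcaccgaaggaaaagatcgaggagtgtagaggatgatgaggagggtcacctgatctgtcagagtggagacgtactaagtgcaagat
Clk1 skipping form: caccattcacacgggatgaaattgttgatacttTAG

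Mutually exclusive pairs of equal length were found in Tpm1 (76 nt; chr9:67032466-67032541 upstream and chr9:67031951-67032026 downstream, minus strand), P4ha1 (71 nt; chr10:59354340-59354410 and chr10:59355350-59355420, plus strand), U2af1 (67 nt; chr17:31652502-31652568 and chr17:31651646-31651712, minus strand) and Rab6 (106 nt; chr7:100629666-100629771 and chr7:100629838-100629943, plus strand). The Tpm1 and U2af1 pairs are shown because the genotypes moved them in different ways. Capitals mark the bases that differ within a pair.
Tpm1 upstream: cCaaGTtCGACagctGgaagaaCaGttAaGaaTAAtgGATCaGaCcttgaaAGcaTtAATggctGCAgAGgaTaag
Tpm1 downstream: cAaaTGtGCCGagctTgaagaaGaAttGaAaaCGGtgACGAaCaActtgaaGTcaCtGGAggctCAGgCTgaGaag
U2af1 upstream: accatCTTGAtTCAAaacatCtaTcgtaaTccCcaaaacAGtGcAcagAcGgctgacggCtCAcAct
U2af1 downstream: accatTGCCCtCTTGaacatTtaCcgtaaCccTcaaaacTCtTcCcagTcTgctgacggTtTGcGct

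Within the Tpm1 pair 43 of 76 bases were the same (56.6%), within P4ha1 42 of 71 (59.2%), within U2af1 44 of 67 (65.7%) and within Rab6 76 of 106 (71.7%). The summed PSI of a pair over the 24 samples ran from 97.6 to 107.5 for Tpm1, 94.2 to 102.8 for P4ha1 and 95.0 to 101.6 for Rab6. For U2af1 it ran from 83.1 to 105.5, so that the sum of this pair did not stay near 100. Where 1 exon of such a pair replaces the other the frame is kept, although each exon alone meets the length rule.

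The 713 exons lay in 608 genes, 529 of them with 1 exon and 79 with 2 or more, up to 5. Exons of 1 gene share its transcripts and are not independent. Exon length ranged from 19 to 2068 nt with a median of 109 nt, 359 exons left a remainder of 1 and 354 of 2 on division by 3, and 411 were simple cassettes while 302 were scored as complex events. Inclusion in WT ESCs was skewed to the ends of the permitted range: 199 exons (27.9%) lay at 10 to 30%, 114 (16.0%) at 30 to 70% and 400 (56.1%) at 70 to 90%. The 598 frame-preserving exons chosen by the same rule were spread more evenly, at 33.1, 24.4 and 42.5%. The reads behind a PSI value numbered 19 to 13430 with a median of 199, and the median SD of PSI over 3 replicates was 2.11 to 3.44 points by group.

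The place of each exon in its gene was taken from the annotation for the 534 of 713 exons (74.9%) that matched. Skipping was predicted to give a stop more than 50 nt before the last junction for 230 exons (43.1% of those matched), inclusion for 67 (12.5%), both for 4 and neither for 91 (17.0%). A further 63 lay in untranslated regions, 37 in genes or positions with no coding transcript, and 42 held a start codon or met an incomplete transcript. Of the exons matched, 117 (21.9%) were part of a transcript annotated as an NMD target, among them 40 of the 67 whose inclusion gives the stop. The share was similar for matched frame-preserving exons, at 90 of 477 (18.9%). Among 477 matched frame-preserving exons only 3 were predicted to give an early stop on skipping and 25 on inclusion, while 379 gave neither. The prediction treats each exon alone, so both members of an exclusive pair fall in the skipping class, and it says nothing of whether a transcript was degraded in these cells.

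Predicted consequence and level went together, but the classes themselves depend on the annotation. The skipping class needs an annotated coding transcript with the exon, and the inclusion class needs a coding transcript without it. How far this alone sets the levels of the classes was not tested. Exons whose skipping gives the early stop had a median PSI of 85.4% in WT ESCs and exons whose inclusion gives it 18.1%, so that in both classes the form without the stop was the major one at the median. Exons with neither consequence had a median of 81.2%, those in untranslated regions 28.3%, those without a coding transcript 51.4% and the 179 unmatched exons 50.6%.

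**Figure D1:**
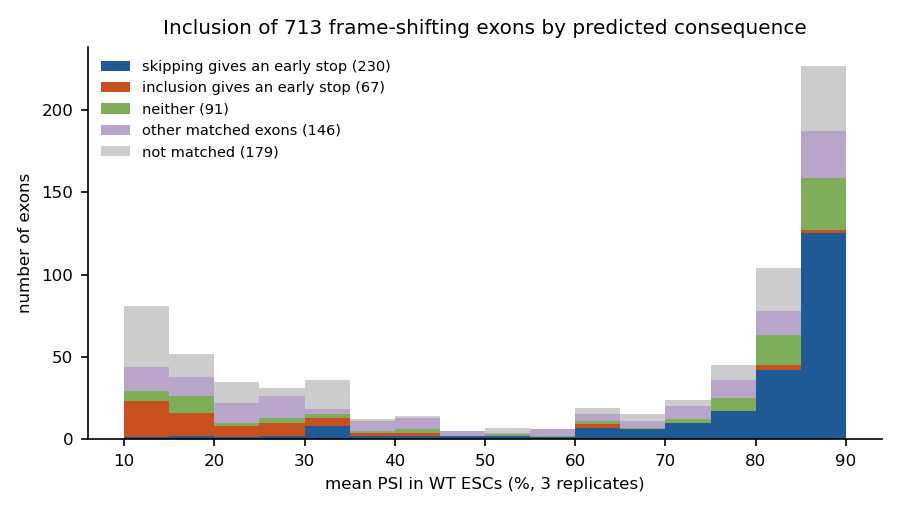
Stacked counts of the 713 exons (y axis) by mean PSI in WT ESCs (x axis, percent, 3 replicates), coloured by predicted consequence. The 230 exons whose skipping gives an early stop sit mostly above 70% and the 67 whose inclusion gives it mostly below 35%.

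Read totals per sample ranged from 32974432 to 104466886. Polr2a RNA, which does not show the substitution itself, had a mean of 717 CPM (gene counts scaled to library size by TMM) in WT against 707 CPM in slow/slow ESCs, and of 323 against 168 CPM in neurons, a log2 change of -0.94 (SE 0.16, edgeR FDR 7.76e-05), with an FDR of at least 0.135 at the other stages. Markers of other stages and cell types differed between the genotypes. The 4 PSA-NCAM+ markers summed to 28.9 to 32.7 CPM in WT and 40.0 to 92.3 CPM in slow/slow PSA-NCAM+ cells. These sums were above those of NPCs of the same genotype (13.5 to 14.5 and 21.2 to 30.5 CPM) but far below the 1780 to 1880 CPM of WT neurons, and the 4 ESC markers still summed to 938 to 1220 and 556 to 750 CPM there. In NPCs the ESC markers summed to 1540 to 1630 CPM in WT and 1200 to 1310 CPM in slow/slow cells, but they moved in different directions. Nanog had means of 384 and 128 CPM, Zfp42 316 and 172 and Sox2 241 and 210, whereas Pou5f1 had 639 and 736 CPM. The 4 endoderm markers summed to 123 to 142 CPM in WT and 114 to 147 CPM in slow/slow NPCs. There the 2 measured progenitor markers of 3 summed to 36.9 to 38.3 CPM in WT and 120 to 157 CPM in slow/slow cells. The 4 measured neuronal markers of 5 summed to 27.4 to 28.1 and 104 to 121 CPM. In neurons the same 4 gave 1330 to 1430 CPM in WT and 1220 to 1390 CPM in slow/slow cells, but they moved in different directions: Tubb3 had means of 928 and 1190 CPM, whereas Syn1 had 221 and 60.3, Snap25 208 and 60.2 and Rbfox3 36.6 and 19.7 CPM. The 2 measured progenitor markers gave 247 to 296 CPM in WT and 415 to 470 CPM in slow/slow neurons. Pax6 had means of 12.3 and 80.8 CPM and Nes 265 and 368 CPM. The 2 mesoderm markers gave 70.7 to 94.4 against 6.76 to 7.97 CPM. The 4 glial markers gave 27.8 to 36.5 against 9.76 to 11.2 CPM, mainly through Olig2 (22.8 and 0.883 CPM), while Aqp4 was higher in slow/slow neurons (1.53 and 3.5 CPM) and the Mbp samples overlapped. The 4 endoderm markers gave 48.7 to 56.5 against 29.5 to 49.2 CPM, mainly through Foxa2 (42.8 and 19.3 CPM), while Sox17 was higher in slow/slow neurons (1.98 and 4.09 CPM) and the Gata4 and Gata6 samples overlapped. The part of composition in the differences below was not tested, and in bulk samples fewer cells of a type and less RNA per cell cannot be told apart. Replicate 1 of the slow/slow PSA-NCAM+ cells stood apart from replicates 2 and 3, and PSA-NCAM+ replicates with the same number deviated together.

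At each stage the exons were compared between slow/slow and WT cells. An exon was called changed when its mean PSI differed by more than 10 points (dPSI, slow/slow minus WT) and the posterior probability of a difference in that direction exceeded 0.95, a value per exon with no adjustment for their number. The calls were read from a table of all exon events that passed the coverage and junction balance filters in the 6 samples compared. Of the 713 exons, 478 (ESCs), 482 (NPCs), 486 (PSA-NCAM+ cells) and 489 (neurons) were tested, while 191 were tested at no stage. The others lacked the required score for read composition (120 to 135 exons per stage) or failed the junction balance alone (100 to 107).

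In slow/slow ESCs 30 of 478 exons were called (6.28%), 22 more and 8 less included. Over all exon events tested 0.809% were called, but most of these are near 0 or 100% and cannot move far; among events with a WT PSI of 10 to 90% at the stage 9.59% were called, 4.86% more and 4.73% less included. The median dPSI over the 478 exons was 1.06 points, with 280 above and 198 below 0. The WT ESC means in these differences were also used to select the exons, with an upper limit of 90%. Of the 713 exons 56.1% lay at 70 to 90%. Such a limit can favour WT means that are low through replicate spread. The direction of the median and of the calls may therefore partly restate the rule, and how far it does was not tested. Of 440 frame-preserving exons 36 (8.18%) were called.

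In slow/slow NPCs 122 of 482 exons were called (25.3%), 30 more and 92 less included, the highest count of the 4 stages. The shares were 2.93% over all events tested and 31.5% over those in the PSI range, 10.6% more and 20.9% less included. The median dPSI was -3.21 points, 323 exons lay below 0 and 159 above, and 128 of 450 frame-preserving exons (28.4%) were called.

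In slow/slow PSA-NCAM+ cells 29 of 486 exons were called (5.97%), 9 more and 20 less included, beside 0.966% over all events tested and 8.91% over those in range (2.44% more, 6.47% less included) and 42 of 472 frame-preserving exons (8.90%). The median dPSI was -1.52 points. Without replicate 1 of the slow/slow cells the count was 53. The limma test called 6 exons, and 22 with the replicate number as a block, of which 4 and 15 were among the 29. The 6 were both Tpm1 exons and those of Rbfox2 and Ptbp2, which are among the 29, and those of Dot1l and Rbm25, which are not.

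In slow/slow neurons 58 of 489 exons were called (11.9%), 42 more and 16 less included. The share over all events tested was 3.55% and over those in range 29.7% (17.3% more, 12.3% less included), and 83 of 453 frame-preserving exons (18.3%) were called. The median dPSI was 1.21 points with 309 exons above and 180 below 0. The WT neuron means in these differences were also used by the selection, and its effect on their direction was not tested. Because the selection kept only exons with like PSI in WT ESCs and WT neurons, the members are not a random draw of the events in range, and the difference between these shares was not tested.

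**Figure D2:**
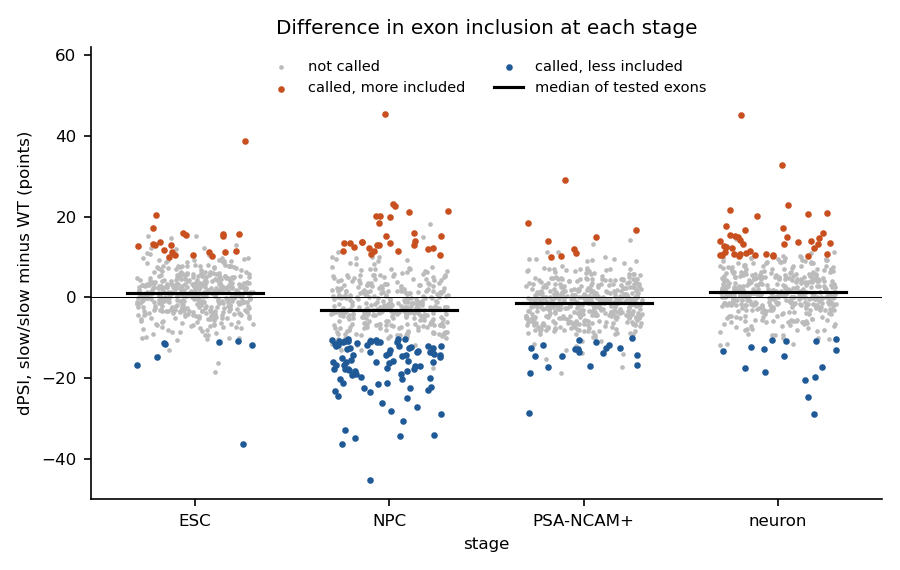
Difference in PSI between slow/slow and WT cells (y axis, points) for each tested exon at each stage (x axis), with called exons in colour and the median as a bar. Medians are 1.06, -3.21, -1.52 and 1.21 points, and the NPC column holds 92 exons called less included.

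Of the 713 exons 125 were called at 1 stage, 40 at 2, 10 at 3 and 1, in Mocs2, at all 4, while 537 were called at none. The 537 include the 191 exons tested at no stage, and 438 exons were tested at all 4. The comparisons at different stages share no samples. Of the 30 exons called in ESCs, 21 were also called in NPCs, where they made up 17.2% of the calls, 20 of them in the same direction. NPCs and PSA-NCAM+ cells shared 17 exons, all in the same direction, which were 13.9% of the NPC and 58.6% of the PSA-NCAM+ calls. NPCs and neurons shared 22 exons (18% and 37.9%), of which 5 went the same way and 17 opposite ways. All calls leaned to less included in NPCs (92 of 122) and to more included in neurons (42 of 58). Frame-preserving exons (97 of 128 and 60 of 83) and events in the PSI range (343 of 517 and 473 of 810) leaned in the same directions. Exons shared between stages were not counted for those sets.

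The exclusive exons of Tpm1, which encodes the actin-binding protein tropomyosin 1, gave the largest differences at the 3 earlier stages. In ESCs the upstream exon had PSI values of 37.5, 39.5 and 39.4% in the WT and 73.4, 80.9 and 77.9% in the slow/slow samples. In NPCs the values were 28.7, 30.1 and 29.1% against 71.8, 77.9 and 74.8%, and in PSA-NCAM+ cells 27.4, 31.4 and 29.5% against 55.7, 60.8 and 58.9%. In neurons they were 46.6, 52.6 and 51.3% against 62.9, 56.8 and 55.2%. The genotypes did not overlap at any stage, and the distance narrowed from NPCs (dPSI 45.5 points) through ESCs (38.6) and PSA-NCAM+ cells (29.0) to neurons (8.10), where the 10-point minimum was not met. The downstream exon mirrored this, with dPSI of -36.3, -45.3, -28.7 and -6.24 points. From slow/slow ESCs to slow/slow neurons the upstream exon fell by 19.1 points and the downstream exon rose by 21.6, both called.

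The other pairs did not follow Tpm1. In Rab6, a GTPase gene of Golgi traffic, the downstream exon fell from 71.3 ± 2.29 to 59.5 ± 1.94% in slow/slow ESCs (SD, n = 3) and from 72.9 ± 0.701 to 58.7 ± 1.31% in NPCs, while the upstream exon rose by 11.4 and 13.7 points. In neurons the downstream exon was at 84.2 ± 0.124 and 87.0 ± 1.72%. In U2af1, the small subunit of the factor that binds the 3' splice site, the downstream exon rose from 12.9 ± 2.6 to 35.4 ± 3.09% in NPCs and by 10.1 points in PSA-NCAM+ cells, where limma with the replicate block gave an FDR of 0.12. The upstream U2af1 exon did not pass the rule in NPCs (dPSI -7.40) and rose by 10.7 points in neurons. In P4ha1, a collagen prolyl hydroxylase gene, the upstream exon rose by 13.5 points in NPCs and fell by 17.3 points in neurons, the downstream exon moving by -12.8 and 14.0 points. The partners of the named exons were added here after their values were seen.

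**Figure D3:**
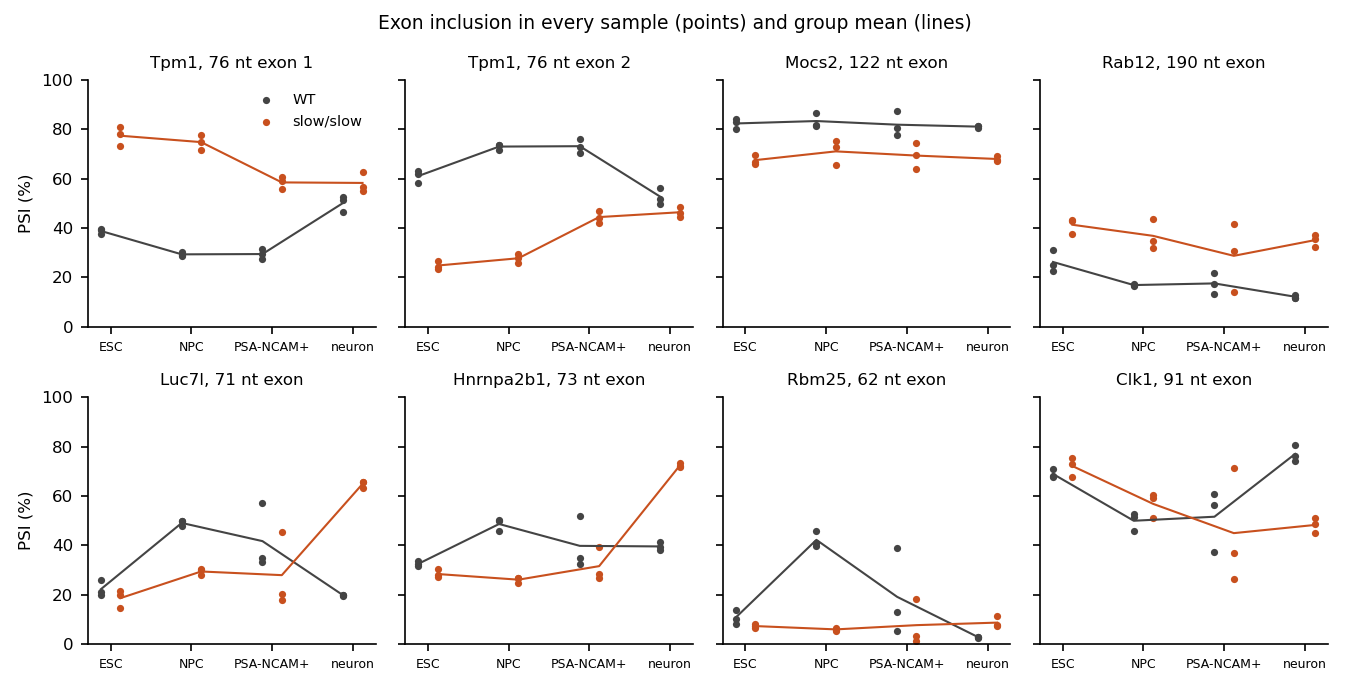
PSI (y axis, percent) of 8 exons in every sample (points) with group means (lines) over the 4 stages (x axis), WT in grey and slow/slow in red; Tpm1 exon 1 is the upstream and exon 2 the downstream exon of the pair. The genotypes are far apart for Tpm1 in ESCs and NPCs (38.6 and 45.5 points), cross for Luc7l and Hnrnpa2b1 between NPCs and neurons, and stay 12.3 to 14.9 points apart for Mocs2.

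Of the 67 exons whose inclusion gives an early stop, 4 of 48 tested were called in ESCs (3 more, 1 less included) and 16 of 45 in NPCs (3 more, 13 less). At the later stages 4 of 48 were called in PSA-NCAM+ cells (all less included) and 11 of 47 in neurons (10 more, 1 less). The median dPSI over the tested exons of the class was 0.34, -5.75, -3.86 and 1.42 points. Beside these counts stand 6.28, 25.3, 5.97 and 11.9% called over all tested exons of the selection. Over events in the PSI range the shares were 9.59, 31.5, 8.91 and 29.7%. At each stage the commoner direction in the class was also that of all called exons (22 more and 8 less, 30 and 92, 9 and 20, 42 and 16). Whether the class differs from them was not tested.

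Luc7l encodes a protein related to a yeast U1 snRNP component. In NPCs its stop-bringing exon had PSI values of 49.7, 47.9 and 49.6% in WT and 29.8, 30.3 and 28.1% in slow/slow samples, and in neurons 19.6, 19.8 and 19.7% in WT and 65.7, 63.3 and 65.6% in slow/slow samples. The exon was thus lower in every slow/slow NPC sample (dPSI -19.7 points) and higher in every slow/slow neuron sample (45.2 points, the largest rise in neurons). In ESCs the samples overlapped, at 19.7 to 26.0% in WT and 14.6 to 21.3% in slow/slow cells. In PSA-NCAM+ cells replicate 1 was the highest of each genotype, at 57.2 and 45.3%, and the difference of -13.8 points did not meet the posterior threshold (limma FDR 0.174, and 0.00633 with the replicate block). Luc7l RNA was at 104 ± 3.01 and 110 ± 3.13 CPM in WT and slow/slow NPCs (edgeR FDR 0.226), and at 176 ± 7.27 and 139 ± 2.19 CPM in neurons, a log2 change of -0.34 (SE 0.06, FDR 4.36e-05).

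Nktr, the gene of a cyclophilin-related protein of natural killer cells with an SR-like domain, had 66.7, 70.7 and 55.3% inclusion in WT and 22.8, 33.3 and 33.0% in slow/slow NPCs. In neurons the values were 36.2, 23.5 and 32.9% in WT and 54.1, 48.7 and 51.3% in slow/slow samples. The groups did not overlap at either stage (dPSI -34.5 and 20.5 points), with as few as 24 reads behind a value. Its RNA did not pass the test at any stage (FDR at least 0.162). Rbm39, a splicing coactivator gene, went from 39.5 to 25.8% in NPCs and from 19.9 to 33.1% in neurons.

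Other exons of the class kept 1 direction. In Rabggtb, a subunit gene of the Rab geranylgeranyl transferase, WT ESCs gave 35.8, 34.3 and 34.0% and slow/slow ESCs 44.4, 44.6 and 46.5%. In neurons the values were 19.3, 19.3 and 22.3% against 41.1, 34.5 and 45.8%, and the difference was 16.0 points in NPCs and 7.73, with overlapping samples, in PSA-NCAM+ cells. Rabggtb RNA differed by an edgeR FDR under the threshold only in PSA-NCAM+ cells (106 ± 9.43 and 127 ± 0.881 CPM, FDR 0.00244). In Rab12, a small GTPase gene, WT neurons gave 11.8, 11.8 and 12.8% and slow/slow neurons 37.1, 35.7 and 32.4%, with rises of 15.1 points in ESCs and 19.95 in NPCs. Rab12 RNA was lower by a log2 change of -0.50 in ESCs, -0.79 in NPCs and -1.0 in neurons (SE 0.19 in each, FDR 0.0395, 0.00132 and 0.000162), at 73.7 ± 4.18 and 37.0 ± 0.159 CPM in WT and slow/slow neurons. Thus in Rab12 the exon rose and the RNA fell at each stage where the exon was called, whereas in Rabggtb the exon rose by a like amount beside RNA that was not called at those stages.

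Cnot2, which encodes a subunit of the CCR4-NOT deadenylase, was the case of lower inclusion at 3 stages, from 17.0 ± 4.07 to 5.98 ± 1.07% in ESCs, 24.4 ± 2.93 to 8.43 ± 1.69% in NPCs and 24.2 ± 1.31 to 13.3 ± 2.68% in neurons. Ccnl1, which encodes cyclin L1 of splicing complexes, rose by 11.2 points in ESCs and fell by 14.1 points in NPCs. Dtnb, the dystrobrevin beta gene, fell from 60.7 ± 3.48 to 25.9 ± 1.93% in NPCs. Dclk2, a doublecortin-like kinase gene, fell by 22.5 points in NPCs and 17.2 in PSA-NCAM+ cells, the latter with a blocked limma FDR of 0.0681. Brd2, a bromodomain reader of acetylated histones, had 13.6, 13.9 and 13.0% in WT and 24.2, 24.2 and 24.5% in slow/slow neurons (10.8 points), with differences of 4.42, 9.93 and 4.56 points at the earlier stages that did not meet the rule. Brd2 RNA was higher in slow/slow ESCs and NPCs (log2 0.53 and 0.62, SE 0.09, FDR 0.000158 and 1.83e-05) and lower in neurons (-0.28, FDR 0.0164).

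Of the 230 exons whose skipping gives an early stop, 15 of 213 were called in ESCs (11 more, 4 less included) and 38 of 212 in NPCs (16 and 22). The later stages gave 11 of 214 for PSA-NCAM+ cells (5 and 6) and 24 of 213 for neurons (16 and 8). Median dPSI was 2.35, -2.24, -0.45 and 1.06 points. For ESCs and neurons these differences are measured from WT means that the selection also used, so their direction may partly restate the rule. Over all tested exons of the selection the shares called were 6.28, 25.3, 5.97 and 11.9%, with medians of 1.06, -3.21, -1.52 and 1.21 points.

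Clk1 encodes a kinase of SR splicing factors, and its exon, shown above, is coding. In WT neurons it had PSI values of 74.2, 80.8 and 76.1% and in slow/slow neurons 51.1, 48.7 and 44.8%. The genotypes did not overlap in neurons, where the exon fell by 28.8 points, the largest fall there, and overlapped at the 3 earlier stages. In slow/slow PSA-NCAM+ cells the replicates spread from 26.3 to 71.4%. Clk1 RNA did not pass the test at any stage (FDR at least 0.232), with 53.7 ± 3.11 and 50.3 ± 2.35 CPM in WT and slow/slow neurons.

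Mocs2, a gene of molybdenum cofactor synthesis, had the exon called at all 4 stages. WT ESCs gave 83.0, 80.1 and 84.1% and slow/slow ESCs 66.8, 66.0 and 69.7%, and WT neurons gave 81.3, 80.5 and 81.5% and slow/slow neurons 67.2, 67.8 and 69.0%. The difference was -14.9, -12.3, -12.5 and -13.1 points from ESCs to neurons, with limma FDR 0.277 and blocked FDR 0.152 in PSA-NCAM+ cells. Mocs2 RNA changed only in NPCs (12.5 ± 0.941 to 16.1 ± 0.379 CPM, log2 0.37, SE 0.11, FDR 0.00869).

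Myh9, the gene of non-muscle myosin heavy chain IIA, rose from 80.2 ± 2.45 to 93.2 ± 2.04% in ESCs, by 13.6 points in NPCs and by 10.9 in PSA-NCAM+ cells. Dpp7, a dipeptidyl peptidase gene, rose by 12.6 points in ESCs and from 57.1 ± 4.41 to 78.7 ± 5.91% in neurons, with -1.80 and -1.66 points between. Cyp4f16, a cytochrome P450 gene, fell from 79.1 ± 4.56 to 58.7 ± 5.22% in neurons. Gpcpd1, a glycerophosphodiesterase gene, fell from 75 ± 1.86 to 55.3 ± 4.67% in neurons, where its RNA went from 122 ± 10.8 to 46.1 ± 3.00 CPM, a log2 change of -1.40 (SE 0.11, FDR 3.06e-09). The same exon differed by -11.6 points in NPCs without meeting the posterior threshold, and the RNA was higher (log2 0.87). Ptbp2, the neuronal polypyrimidine tract binding protein, had a 34 nt exon that rose by 11.9 points in PSA-NCAM+ cells, although the samples overlapped.

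Exons with no predicted early stop, outside the coding sequence, or without a prediction also differed at several stages. Those of Ctbp2, Gpsm2 and Hmgxb4 lie in coding sequence but hold a start codon or met an incomplete transcript, so no prediction was made for them. In Rbfox2, a splicing regulator gene, the 40 nt exon had 79.4, 77.0 and 79.4% in WT and 95.7, 95.5 and 95.9% in slow/slow ESCs, and 74.4, 75 and 76% against 96.6, 96.4 and 95.8% in NPCs. In PSA-NCAM+ cells the slow/slow values were 72.1, 90.1 and 92.2%, replicate 1 being the low one. The groups did not overlap at any stage, and the 9.18 points in neurons missed the minimum. Spata5, an AAA ATPase gene, had a 37 nt exon that rose from 19.1 ± 1.58 to 39.3 ± 2.69% in ESCs, by 23 points in NPCs and by 16.8 in PSA-NCAM+ cells, against 1.84 points in neurons. Ctbp2, a transcriptional corepressor gene, rose by 13.7, 10.4 and 17.7 points in ESCs, NPCs and neurons. Ppp6r3, a regulatory subunit gene of protein phosphatase 6, had an exon of the 5' untranslated region that rose by 15.6, 12.1 and 14.0 points in ESCs, NPCs and PSA-NCAM+ cells.

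Klc1, the kinesin light chain 1 gene, fell from 61.5 ± 1.97 to 44.6 ± 5.17% in ESCs and from 80.2 ± 5.32 to 57.9 ± 0.611% in NPCs, whereas in neurons the samples overlapped (dPSI -3.95). Pkp4, which encodes plakophilin 4, fell from 81.8 ± 2.06 to 63.1 ± 2.66% in PSA-NCAM+ cells. Gpsm2, a regulator of spindle orientation, rose by 15.8 points in ESCs and 14.9 in PSA-NCAM+ cells, the latter with a blocked limma FDR of 0.155. Hmgxb4, an HMG-box gene, fell from 84.3 ± 7.43 to 59.6 ± 3.31% in neurons. At the edges of the 15-point window, Yeats2 (74.4 to 89.4% from WT ESCs to WT neurons), Ndc80 (67.8 to 82.8%) and P4ha1 (63.1 to 48.1%) were the last inside, and Ube2j2 (32.4 to 47.4%), Tatdn1 (82.3 to 67.1%) and BC004004 (76.5 to 91.7%) the first outside.

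Lists of gene functions were set beside the exons. Of 34 exons in 29 RNA processing genes, 2 of 22 tested were called in ESCs (both more included) and 8 of 22 in NPCs (2 more, 6 less). At the later stages 3 of 24 were called in PSA-NCAM+ cells (all more included) and 6 of 22 in neurons (5 more, 1 less), with a median dPSI of 1.10, -5.20, -1.62 and 3.72 points. The medians over all tested exons given above had the same sign at each stage. The shares called over all tested exons, 6.28, 25.3, 5.97 and 11.9%, stand beside this list and those below. No list was tested against these shares. Hnrnpa2b1 encodes an abundant heterogeneous nuclear ribonucleoprotein, and its 73 nt exon (mm9 chr6:51411982-51412054, minus strand) matched no annotated exon. In NPCs it had 49.7, 45.9 and 50.3% in WT and 24.7, 26.7 and 26.8% in slow/slow samples. In neurons it had 41.2, 38.2 and 39.3% in WT and 72.2, 71.7 and 73.2% in slow/slow samples. The samples did not overlap, and the direction turned between these stages, from -22.6 to 32.8 points. Hnrnpa2b1 RNA was higher in slow/slow cells at all 4 stages, by log2 0.49, 1.01, 0.89 and 0.69 (SE 0.11 in each, FDR at most 0.00103).

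Rbm25, a splicing factor gene, had a 62 nt exon (mm9 chr12:85002157-85002218, plus strand) at 45.9, 40.9 and 39.8% in WT and 5.39, 5.79 and 6.49% in slow/slow NPCs. In WT ESCs it was at 10.7 ± 2.97% and in WT neurons at 2.81 ± 0.206%, so that WT NPCs stood above both, while slow/slow NPCs did not. In WT PSA-NCAM+ cells the replicates ran from 5.23 to 39.1%. Rbm25 RNA did not pass the test at any stage (FDR at least 0.107).

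Of 22 exons in 18 genes of chromatin and transcription, 1 of 17 tested was called in ESCs and 4 of 18 in NPCs (2 more, 2 less included). At the later stages the numbers were none of 18 in PSA-NCAM+ cells by the posterior rule (4 at an unadjusted limma p under 0.05 and 1, in Dot1l, called by limma) and 3 of 16 in neurons (2 more, 1 less). Dot1l, the histone H3 lysine 79 methyltransferase, rose from 24.7 ± 3.64 to 40.1 ± 4.14% in ESCs and from 4.95 ± 0.297 to 25 ± 1.51% in NPCs. Dnmt3b, a de novo DNA methyltransferase, had an exon of the 5' untranslated region at 7.61, 12.6 and 11.7% in WT and 31.4, 32.4 and 32.0% in slow/slow NPCs. In neurons it was at 26.0 ± 0.762 and 15.2 ± 2.47% (limma FDR 0.0581). Setd5, a SET domain gene, fell by 18.2 points in NPCs and rose by 12.4 in neurons. Of 6 exons in cell cycle and DNA repair genes 2 of 5 tested were called in NPCs, both less included, and 1 in PSA-NCAM+ cells. None of the 5 was called in ESCs or neurons, where 0 and 1 had an unadjusted limma p under 0.05 and limma called none. Rev1, a translesion polymerase gene, fell from 46.1 ± 4.55 to 17.2 ± 3.98% in NPCs and by 16.9 points in PSA-NCAM+ cells, and Trp53bp1, of double-strand break repair, fell by 11 points in NPCs.

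NMD and exon junction complex genes held 6 of the exons, among them exons of Smg6 and Rnps1. The 1756 nt exon of Smg6, the endonuclease of the pathway, rose from 83.2 ± 6.37 to 93.8 ± 0.175% in ESCs. At the later stages its means were 94.7 to 98.0% in both genotypes. The exon met the selection through its low WT ESC mean, from which the rise is also measured. The call was close to the threshold (posterior 0.955, limma FDR 0.0447, and 0.0871 with the replicate block). The other 3 Smg6 exons were tested at no stage. In NPCs 1 of 3 tested exons of these genes was called, less included. All 3 had an unadjusted limma p under 0.05 there, and limma called none. None of the 3 exons tested in PSA-NCAM+ cells and in neurons was called, by the posterior rule or by limma, and 0 and 1 had an unadjusted limma p under 0.05. The Rnps1 exon was called at no stage, with -8.00 points in neurons. RNA of the 26 listed genes, 23 of them tested, was more often higher than lower in slow/slow cells before the neuron stage. The shares called, 43.5, 60.9, 56.5 and 26.1% from ESCs to neurons, stood beside 40.4, 56.7, 56.7 and 51.9% of all genes, and the shares called higher, 34.8, 56.5, 56.5 and 17.4%, beside 18.5, 29.3, 28.6 and 23.4%. In ESCs 8 genes were higher and 2 lower and in NPCs 13 and 1. The numbers were 13 and 0 for PSA-NCAM+ cells (also 0 lower at an unadjusted edgeR p under 0.05 and by DESeq2) and 4 and 2 for neurons, with median log2 changes of 0.22, 0.37, 0.35 and 0.01 beside -0.02, 0.01, -0.01 and -0.06 over all genes. Pnrc2, Magohb and Upf3a were higher at every stage (log2 0.40 to 0.74), and Upf3b was higher at the 3 earlier stages (0.47, 0.53 and 0.70) and lower in neurons (-0.40, SE 0.11, edgeR FDR 0.00443). Their directions were the same with DESeq2 and upper-quartile scaling, but with the latter the neuron counts were 7 higher and 0 lower, so that the fall of Upf3b was no longer called. The effect of these levels on the exons was not tested.

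The 17 exons called in opposite directions in NPCs and neurons were examined together, a choice made after their values were seen. In 14 of them the exon was less included in slow/slow NPCs and more included in slow/slow neurons, and in 3 the reverse. Since opposite calls at the 2 stages chose them, their differences are given as a description, with no test. Over all exons, a limma test of the difference between the 2 genotype effects gave an FDR under 0.05 for 161 of 461 tested, beside 11.0% of all exon events tested, most of which are near 0 or 100%. In Ypel3, WT and slow/slow means were 90.9 and 67.4% in NPCs and 71.5 and 92.5% in neurons. In Fam193b they were 75 and 48.9%, then 30.6 and 47.3%. In Sirt2, which encodes a NAD-dependent deacetylase, they were 17.4 and 37.6%, then 46.6 and 29.1%, the reverse order. All 14 of the first kind had a lower mean in WT neurons than in WT NPCs, and 11 of them had a higher mean in slow/slow neurons than in slow/slow NPCs. The opposite calls that chose these exons require a WT fall or a slow/slow rise in each. The counts therefore partly restate the choice.

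**Figure D4:**
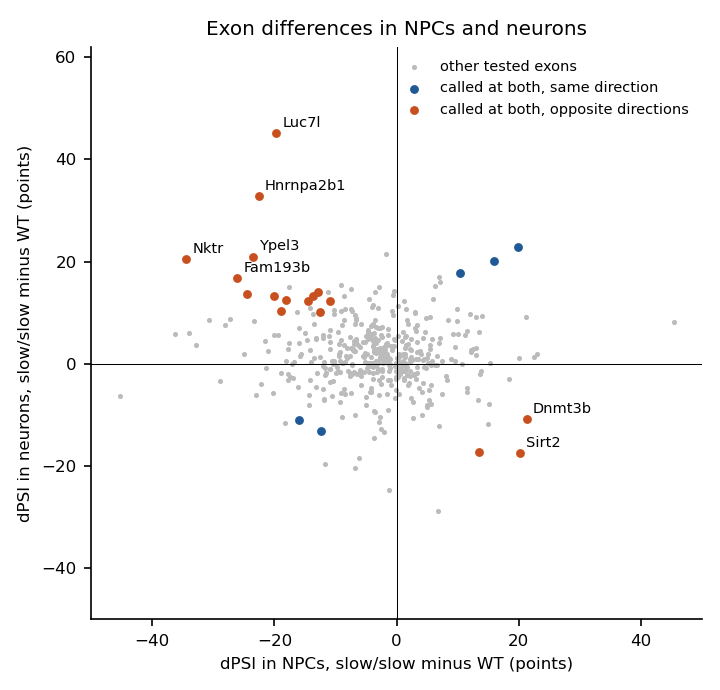
Difference in PSI (slow/slow minus WT, points) in NPCs (x axis) and in neurons (y axis) for each exon tested at both stages. The 5 blue points were called at both stages in the same direction and the 17 red points in opposite directions, from Luc7l (-19.7 and 45.2) to Sirt2 (20.2 and -17.5).

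The selection fixed like inclusion in WT ESCs and WT neurons but not in between, nor in slow/slow cells. Relative to ESCs of the same genotype, 66 of 713 exons rose by more than 15 points in mean PSI in WT NPCs and 11 fell by more than 15, with a median difference of 5.15 points. In slow/slow NPCs 6 lay more than 15 points higher and 11 lower (median 0.68). In PSA-NCAM+ cells the numbers were 17 and 9 in WT and 11 and 17 in slow/slow cells, and in slow/slow neurons 29 and 21. Tested by the same rule as above, 80 of 474 exons (16.9%) were called between slow/slow ESCs and slow/slow neurons, 48 more and 32 less included in neurons. Over all events tested 3.89% were called in this comparison, and 33.9% of those with a slow/slow ESC PSI in range, 19.2% more and 14.7% less included. Of 433 frame-preserving exons 83 (19.2%) were called. The Luc7l exon, at 22.2% in WT ESCs and 19.7% in WT neurons, went from 18.6 to 64.9% in slow/slow cells, and that of Hnrnpa2b1 from 28.3 to 72.3%. Clk1 went from 72.1 to 48.2%. These comparisons share the slow/slow samples with the genotype contrasts.

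The host genes were then compared with the exons. Of 608 gene symbols 597 matched the expression table and all of these were tested, with a median level of 50.8 CPM over the 24 samples beside 20.7 over all 16627 genes tested. In ESCs 262 host genes were called (43.9%; 163 higher, 99 lower) beside 40.4% of all genes (18.5% higher, 21.9% lower). In NPCs 361 were called (60.5%; 221 and 140) beside 56.7% (29.3% and 27.4%), and in PSA-NCAM+ cells 343 (57.5%; 218 and 125) beside 56.7% (28.6% and 28.1%). In neurons 300 were called (50.3%; 158 and 142) beside 51.9% (23.4% and 28.4%). When only the 6 samples of a stage were fitted, 101 host genes were called in PSA-NCAM+ cells and 463 in neurons. The split in neurons depended on scaling: with upper-quartile scaling, which moved the median of all genes from -0.06 to 0.09 on the log2 scale, 233 host genes were higher and 91 lower. Among host genes of called exons, those called at the stage were 10 of 28 (ESCs), 68 of 116 (NPCs), 15 of 26 (PSA-NCAM+ cells) and 26 of 56 (neurons).

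Across exons, dPSI and the log2 change of the host gene had Pearson correlations of -0.076 (ESCs, n = 469 exons), 0.072 (NPCs, n = 473), 0.015 (PSA-NCAM+ cells, n = 477) and 0.027 (neurons, n = 481). These describe the exons, which share libraries and partly genes, and no p-value is given. In the class whose inclusion gives an early stop the value was negative at each stage, at -0.153, -0.206, -0.232 and -0.287 (n = 45 to 48), with Spearman values of -0.082, -0.163, -0.069 and -0.166. In the class whose skipping gives it the values were 0.002, 0.185, 0.102 and 0.054 (n = 212 to 214). Frame-preserving exons gave -0.072, -0.078, -0.020 and -0.033. Exons in untranslated regions gave -0.18, 0.239, 0.074 and 0.207, and those with neither consequence -0.2, -0.001, -0.106 and 0.175. Those with a start codon or an incomplete transcript gave -0.116, -0.033, 0.225 and -0.248. Values of the size seen in the inclusion class thus also occurred in other classes, with signs that differed between stages. All of these are weak.

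Where both the exon and its gene were called, the combinations were mixed. In NPCs 7 exons rose with a higher and 9 with a lower gene, while 30 fell with a higher and 26 with a lower gene. The same 4 counts were 11, 9, 3 and 4 for neurons, 3, 5, 2 and 1 for ESCs, and 4, 0, 9 and 2 for PSA-NCAM+ cells. Within the class whose inclusion gives an early stop, 6 of 8 such exons in NPCs fell while the gene was higher and 1 rose while it was lower. In neurons 4 of 5 rose while the gene was lower, Luc7l, Rab12 and Brd2 among them, and 1 rose with a higher gene. In the skipping class the counts were 4, 6, 5 and 8 in NPCs and 4, 4, 1 and 3 in neurons, Gpcpd1 being among those in which both fell. The groups are small, the levels of total gene RNA count every isoform, and whether exon and gene changed through a common step was not tested.

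**Figure D5:**
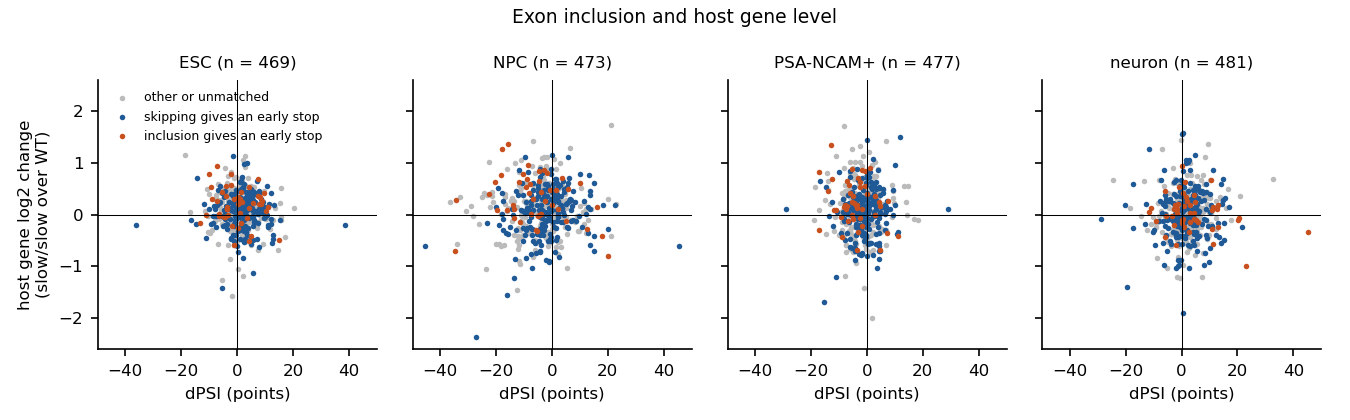
Difference in PSI (x axis, points) against the log2 change of the host gene (y axis, slow/slow over WT) for each exon with a tested host gene at the 4 stages, coloured by predicted consequence. The clouds show no slope that stands out over all exons (Pearson -0.076, 0.072, 0.015 and 0.027), and those of the inclusion class give -0.153 to -0.287, both weak.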

How the data were processed

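Poly(A)-selected RNA of 24 samples, 3 replicates of 8 groups set by the labels, had been prepared with a stranded kit and sequenced from both ends. Per the study's methods and the submitters' processing notes the reads were demultiplexed with bcl2fastq 2.17.1.14, mapped to mm9 and processed with vast-tools, and edgeR was used for expression. For each sample the authors' files hold unnormalized gene counts, PSI as a percent per event and sample, and quality scores with corrected inclusion and exclusion reads. The deposited RPKM (the authors' means over replicates), log2 fold changes and FDR (adjusted p-values) of the authors' own comparisons were not used, nor was their second splicing table of 1 estimate and call per group. Whether counting used the strand is not given in the sources used here, so genes overlapping another gene, or with near-identical copies, are uncertain. No column of per-sample values was left unused (0), and no 2 libraries were identical. Total counts ran from 32974432 to 104466886 per sample.

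The exons, gene lists and tests were chosen with earlier results of these data known. Exon events were compared in Python 3.11.15 by pooled beta posteriors (uniform prior) of the replicates' reads, after the scheme of vast-tools diff, with a dPSI over 10 points and a posterior probability over 0.95, in events with sufficient coverage and balanced junctions in the 6 samples. As an alternative limma 3.58.1 was run on the empirical logit (0.5 added) with read-based weights, whose form was chosen on simulated reads. It called an FDR under 0.05 with the same 10 points. Genes were tested with edgeR 4.0.16 in R 4.3.3 (filterByExpr, TMM, quasi-likelihood F test over the 8 groups, 16627 genes, Benjamini-Hochberg FDR under 0.05) and with DESeq2 1.42.0 as an alternative. SE was derived from the F statistic. The edgeR, limma and posterior steps were checked on simulated counts or reads with known changes. For limma this check is not independent of the choice of its weights, which also used simulated reads.

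Exons were matched to GENCODE M21 (GRCm38) by chromosome, strand, exon length and both flanking intron lengths, without a check of the gene name. No position was carried between builds. Same-numbered replicates deviated together in PSA-NCAM+ cells (correlations of 0.54, 0.455 and 0.402) and not at the other stages (at most 0.0677), so the replicate block is given for PSA-NCAM+ cells. Named exons were, at each stage, the 4 largest rises and 4 largest falls among called exons whose replicates did not overlap; every exon called at 3 or more stages; up to 3 called exons per list and stage, with every exon of the NMD list; and the 3 nearest either side of the window. Some exons that this rule names are not reported here. Alternatives were another dPSI minimum, filters, windows, scalings, tests and each replicate left out.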

Additional observations from a re-analysis of the deposited data

Results flagged for a closer look

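The exons called in opposite directions in NPCs and neurons numbered 17. Opposite calls were not counted among frame-preserving exons or other exon events, so nothing shows them to be particular to this selection. All 17 had an FDR under 0.05 in a limma test of the difference, but opposite calls in the same samples chose them, so the test restates the choice and supports nothing further. The values are dPSI (slow/slow minus WT) in neurons minus dPSI in NPCs, in points. It was 64.8 for Luc7l, 55.4 for Hnrnpa2b1, 55.0 for Nktr, 44.4 for Ypel3, 42.8 for Fam193b and 38.2 for Rpap1. For Plekhj1, Setd5, Mtf2, Rbm39 and Zfp295 it was 33.3, 30.6, 29.3, 26.9 and 26.8, and for 0610010K14Rik and Gpx8 it was 23.3 and 22.6. The exclusive exons of P4ha1 gave 26.8 (downstream) and -30.8 (upstream). Dnmt3b gave -32.1 and Sirt2 -37.7. Among the 14 with a positive value are 3 exons whose inclusion gives an early stop (Luc7l, Nktr and Rbm39). Both mesoderm markers and the glial marker Olig2 were higher in every WT than in every slow/slow neuron sample, whereas Aqp4, another glial marker, was higher in every slow/slow sample and Mbp overlapped. Progenitor markers, as a sum, were also higher in every slow/slow than in every WT neuron sample. Progenitor and neuronal markers, as sums, were higher in every slow/slow than in every WT NPC sample. Their part in these differences was not tested.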

How the results depend on the processing

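With a minimum of 15 points 10 (ESCs), 62 (NPCs), 8 (PSA-NCAM+ cells) and 21 (neurons) were called at the stages and 39 between slow/slow ESCs and neurons. With a WT ESC PSI of 20 to 80% in the selection 19, 70, 18 and 37 were called at the 4 stages, and with a 10-point window 18 in ESCs, where fewer exons were eligible. The limma test called 30, 126, 6 and 62. With the replicate block it called 24, 118, 22 and 54 exons, and 89 rather than 80 from slow/slow ESCs to neurons, while edgeR with the block called 266, 368, 348 and 303 host genes. Leaving out 1 replicate gave 31 to 40, 124 to 131, 23 to 53 (53 in PSA-NCAM+ cells without slow/slow replicate 1) and 53 to 68 exons at the 4 stages and 77 to 88 in slow/slow differentiation, and 228 to 234, 316 to 334, 297 to 424 (424 likewise) and 251 to 264 host genes. Only in PSA-NCAM+ cells do the replicate numbers pair the samples, and the block moved no other count of calls by over 1.5 times. A 2-fold minimum left 13, 28, 27 and 23 host genes, and a fit to the samples of a stage alone gave 101 in PSA-NCAM+ cells and 463 in neurons, the cause of which was not tested. The correlation of dPSI with the host gene was -0.046 in ESCs and 0.117 in NPCs on the logit scale, and in neurons 0.051 as Spearman's rho, 0.035 for genes of at least 10 CPM and 0.044 on the logit scale. Without 1 replicate, an alternative added after seeing the data, it was -0.099 to -0.039, 0.063 to 0.081, -0.013 to 0.055 and 0.021 to 0.037. No called exon or host gene named in the text changed direction under any alternative run for it. Of the calls of named exons, limma kept 64 and lost 11, limma with the block kept 67 and lost 8, and with 1 replicate left out 417 held and 33 did not. Of those of their host genes, DESeq2 scaling kept 68 and lost 3, upper-quartile scaling 63 and 8, the block 71 and none, and leaving out 1 replicate 391 and 35. Exons with few reads (from 19) give PSI values of low precision, 191 exons were tested at no stage.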
